A study of Caenorhabditis elegans with 12 samples.

Results

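Whole wild-type worms fed vha-16 RNAi were compared with whole wild-type worms fed vha-19 RNAi, so that knockdown of 1 subunit of the vacuolar H+-ATPase (V-ATPase) was set against knockdown of another. The comparison takes the 3 vha-16 RNAi libraries and the 3 vha-19 RNAi libraries, 6 of the 12 libraries of the series, chosen by their labels, and every gene row of the count table. All worms were Caenorhabditis elegans of the N2 wild-type strain with no transgene named. In the food of both groups, bacteria making the double-stranded RNA for the target made up 25% and control RNAi bacteria made up 75%. Feeding began at the L1 larval stage, and worms were collected as L4 larvae or young adults after 2.5 days at 20 °C. The other 6 libraries, 3 of control RNAi and 3 of vha-6 RNAi at the same 25% share, are used here as levels beside those of the pair and to estimate the spread between replicates.

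The V-ATPase is a rotary proton pump. Its cytosolic V1 sector hydrolyses ATP, and its membrane V0 sector carries protons into lysosomes, endosomes and other compartments, or out of the cell across some apical membranes. In the worm it acidifies the lysosome-related compartments of the intestine, serves the excretory canal, and is needed for secretion by the epidermis (hypodermis), which lays down the collagen cuticle. The gene vha-16 encodes the d subunit of V0, which links the rotor of the sector to V1. The gene vha-19 encodes the accessory subunit related to mammalian Ac45, and vha-6 encodes an a subunit of V0 made in the intestine.

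Each of the 6 libraries held between 22464039 and 22553227 counts in genes, so depth was nearly equal. Levels are CPM, a gene's share of all counts in a library put on a common scale, computed after trimmed mean of M-values (TMM) scaling, which sets library sizes so that most genes do not shift. The log2 fold change is vha-16 RNAi over vha-19 RNAi, and a positive value means a higher level under vha-16 RNAi. A gene was called when edgeR's quasi-likelihood test over all 12 libraries gave a Benjamini-Hochberg adjusted p under 0.05. The labels do not say that replicates were separate cultures, so the p-values reflect library-to-library spread alone, and that spread may be technical. The biological coefficient of variation was 2.99%, and with replicates this close even small differences were called. In bulk RNA from whole worms, fewer cells of a type and less RNA per cell cannot be told apart. The labels give no stage for single libraries, and the part of developmental stage in any difference below was not tested.

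The targeted transcripts separated the groups in the direction of the labels. The vha-16 transcript (chromosome I, from 5079910 to 5082279, minus strand, WBcel235) was at 269.3, 276.4 and 262.3 CPM in the vha-16 RNAi libraries and at 371.3, 383.8 and 381.8 CPM in the vha-19 RNAi libraries. The vha-19 transcript (chromosome IV, from 3369197 to 3373485, plus strand) was at 318.7, 321.5 and 314.4 CPM under vha-16 RNAi and at 224.0, 222.5 and 205.7 CPM under vha-19 RNAi. Each transcript was lowest in all 3 libraries of its own knockdown, with no overlap. The log2 fold change was -0.49 for vha-16 (standard error, SE, 0.0326, edgeR adjusted p = 5.64e-16), a level 1.41-fold higher under vha-19 RNAi, and 0.55 for vha-19 (SE 0.0334, adjusted p = 4.21e-17), a level 1.46-fold higher under vha-16 RNAi. In control RNAi, vha-16 averaged 441 ± 12.14 CPM (SD, n = 3) and vha-19 averaged 470 ± 6.82 CPM, above every library of the pair for both genes. The intestinal vha-6 transcript averaged 127 CPM under vha-16 RNAi and 116 CPM under vha-19 RNAi, against 401 CPM in control. Its difference within the pair was a log2 fold change of 0.14 (SE 0.0353, adjusted p = 0.00349), a call that was lost without vha-19 RNAi replicate 1 (adjusted p = 0.0551) or replicate 3 (adjusted p = 0.0538).

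Beyond the targets, most of the pump's transcripts stood at similar levels in both knockdowns. Of the 10 V1 subunit genes, none was called higher and 2 were called lower under vha-16 RNAi, against 9.79% and 7.56% of the 17043 genes tested. The catalytic A subunit vha-13 averaged 497 CPM against 491 CPM, and the B subunit vha-12 averaged 354 CPM against 360 CPM, with 95% intervals of the log2 fold change from -0.05 to 0.08 and from -0.08 to 0.04. The 95% interval lay within 1.2-fold in either direction for 8 of the 10 V1 genes, against 47.2% of all genes tested. Summed over the 10 genes, the V1 level ran from 2356 to 2415 CPM under vha-16 RNAi and from 2361 to 2412 CPM under vha-19 RNAi, ranges that overlap almost wholly, and averaged 3948 CPM in control. The 2 exceptions were spe-5, a second B subunit gene known for its role in sperm, with a log2 fold change of -0.20 (SE 0.0594, edgeR adjusted p = 0.0125, and 0.0582 without vha-19 RNAi replicate 1), and vha-18, an H subunit gene, at -0.20 (SE 0.0428, adjusted p = 0.000551).

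In the V0 sector, the a subunit gene vha-7 was lower under vha-16 RNAi. It was at 55.6, 53.0 and 58.9 CPM there and at 60.5, 65.6 and 66.0 CPM under vha-19 RNAi, a log2 fold change of -0.20 (SE 0.0429, edgeR adjusted p = 0.000555) with no overlap. The a subunit genes unc-32 and vha-5 were not called, with log2 fold changes of 0.008 and -0.04. The proteolipid ring genes vha-1, vha-2 and vha-3 were not called and had log2 fold changes of 0.06, 0.07 and 0.04. The ring gene vha-4 passed the threshold narrowly at 0.10 (adjusted p = 0.0394), its libraries overlapped, and the call was lost in every fit that left out 1 library, with adjusted p between 0.0512 and 0.328, and under both other scalings. Besides vha-19, the accessory gene vha-20, the counterpart of the mammalian (pro)renin receptor, was higher under vha-16 RNAi. It was at 167.6, 171.1 and 157.9 CPM there and at 142.4, 135.5 and 137.7 CPM under vha-19 RNAi, a log2 fold change of 0.26 (SE 0.035, adjusted p = 2.16e-07). Both accessory genes were thus lower in the vha-19 knockdown, although only vha-19 was its target.

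**Figure D1:**
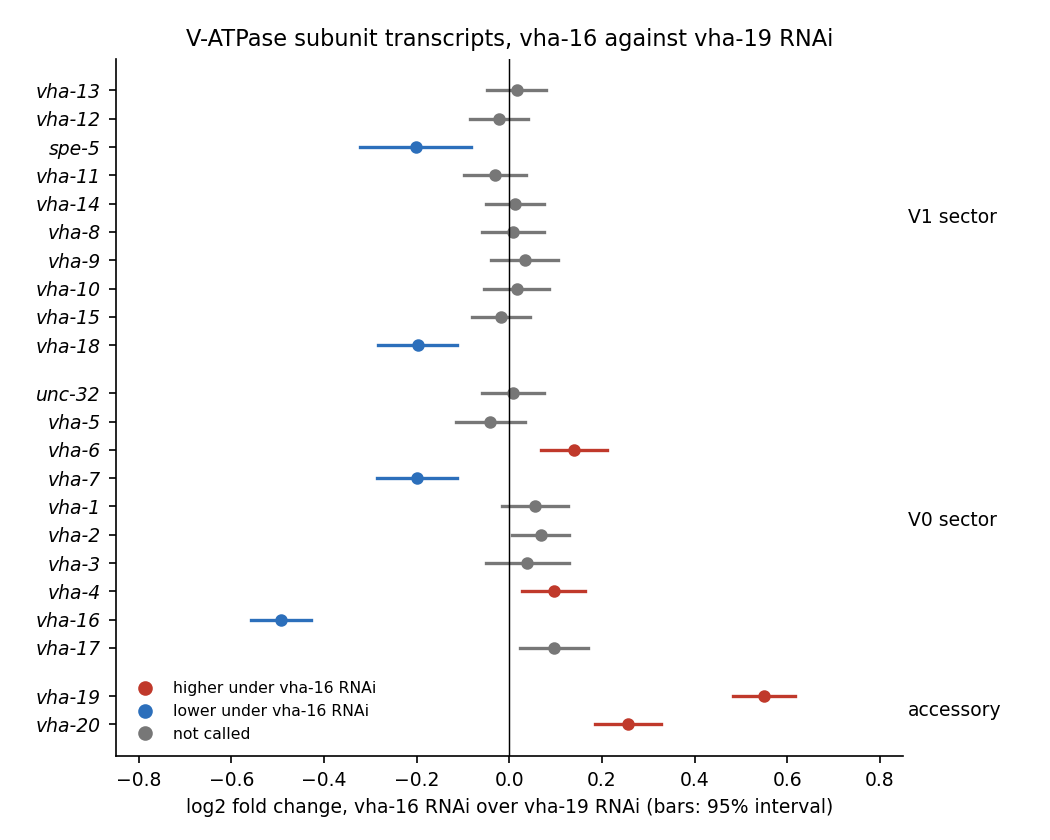
Log2 fold change of each V-ATPase subunit transcript, vha-16 RNAi over vha-19 RNAi (x axis), with points for estimates and bars for 95% intervals, grouped by sector on the y axis. The targets lie at -0.49 (vha-16) and 0.55 (vha-19), vha-20 lies at 0.26, and 8 of the 10 V1 genes lie close to 0.

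Annotated genes within 10 kb of the targets were read beside them. The tyrosine kinase gene kin-32, 4031 bp from vha-16, averaged 16.08 CPM under vha-16 RNAi, 20.1 CPM under vha-19 RNAi and 15.1 CPM in control (log2 fold change -0.33, SE 0.0666, edgeR adjusted p = 0.000275). Next to vha-19, otub-4, whose annotation overlaps the target's end, and B0546.3 were not called, with log2 fold changes of 0.03 and 0.07. The gene B0546.4 was higher under vha-16 RNAi at 0.19 (adjusted p = 0.00269), but not without vha-16 RNAi replicate 1 (adjusted p = 0.0897).

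Over the whole table the pair differed in many genes and by little. Of 17043 genes tested, 2958 were called, which is 17.4%, with 1669 higher and 1289 lower under vha-16 RNAi. The 3 libraries of one group did not overlap the 3 of the other for 5150 genes, or 30.2%, called or not. The median called gene differed by 1.19-fold, and 1541 of the 2958 differed by less than 1.2-fold. Differences of 1.5-fold or more were called for 397 genes (2.33%), with 259 higher (1.52%) and 138 lower (0.81%). Differences of 2-fold or more were called for 71 genes higher (0.417% of genes tested) and 19 genes lower (0.111%), and 40 of these averaged under 1 CPM. Among genes at 500 CPM or more, 52.2% were called and no call reached 2-fold, while 2.68% were called under 1 CPM, so a count of calls in abundant genes also follows the precision that depth gives. The 95% interval of the log2 fold change lay within 1.5-fold for 13237 genes, or 77.7%. With DESeq2's size factors the calls were 1412 higher and 1541 lower, and with library totals they were 1372 higher and 1671 lower, so the share of calls that were higher fell from 56.4% to 47.8% and 45.1%. These scalings moved the median of all genes by only -0.018 and -0.023 on the log2 scale. With 1 library left out, the share of calls that were higher was 46.6% to 49.1%, so which direction held more calls depended on the fit.

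The groups were distinct on the first principal component of the 6 libraries, which held 39.5% of the variance. It placed the vha-16 RNAi libraries between -17.28 and -14.24 and the vha-19 RNAi libraries between 13.3 and 18.2. Calls of genes higher under vha-16 RNAi were more frequent on chromosomes X and V. On X, 307 of 2362 genes tested were higher under vha-16 RNAi, and on V 425 of 3531 were, against 7.97% to 8.82% on the other autosomes.

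**Figure D2:**
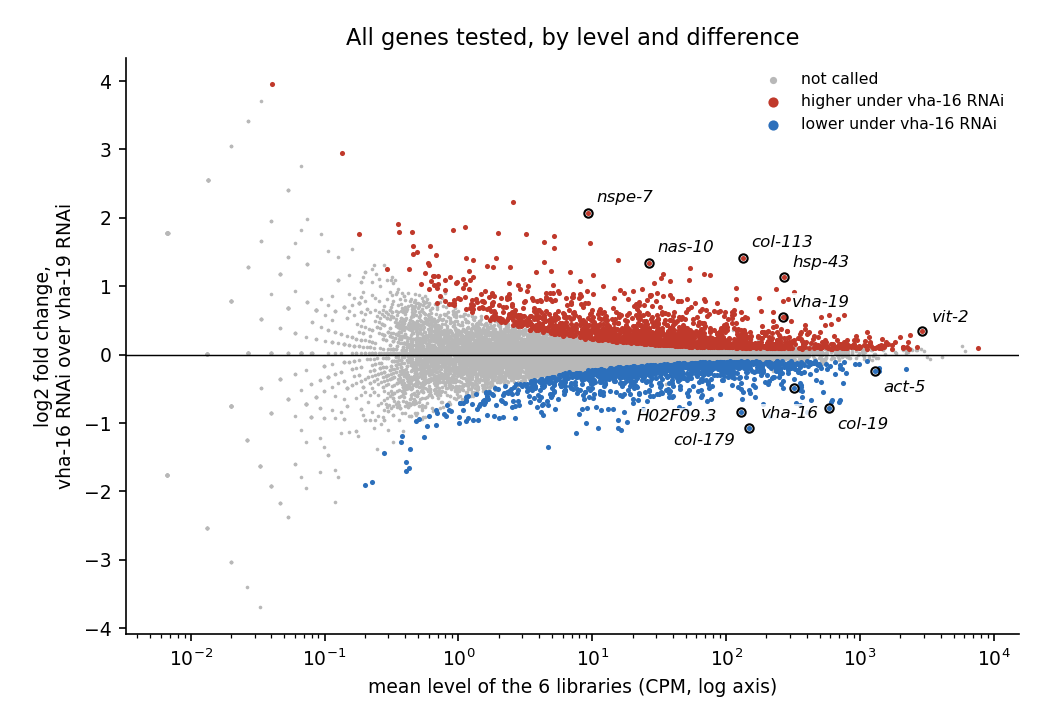
Log2 fold change of every gene tested, vha-16 RNAi over vha-19 RNAi (y axis), against the mean level of the 6 libraries in CPM on a log axis (x axis), with called genes coloured by direction. Most called genes lie near 0, and large differences at high level are few, among them hsp-43 (1.13) and col-113 (1.42).

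The small heat-shock protein gene hsp-43 was the most abundant gene that differed by 2-fold or more. It was at 364.2, 389.0 and 368.6 CPM under vha-16 RNAi and at 172.7, 170.5 and 168.7 CPM under vha-19 RNAi, with a log2 fold change of 1.13 (SE 0.0324, edgeR adjusted p = 3.36e-28). All vha-16 RNAi libraries were more than 2-fold above all vha-19 RNAi libraries, and the means in control and under vha-6 RNAi were 118.7 and 118.3 CPM. Other members of the heat-shock list went both ways. The co-chaperone gene sti-1 (137 against 126 CPM, log2 fold change 0.12, adjusted p = 0.0128, and 0.274 without vha-16 RNAi replicate 1) and hsp-12.6 (1.94 against 1.14 CPM, 0.77, adjusted p = 0.00779), the latter named after its values were seen, were higher under vha-16 RNAi. The small heat-shock genes hsp-16.48 (31.9 against 40.0 CPM, log2 fold change -0.33, adjusted p = 0.000358) and hsp-17 (201 against 251 CPM, -0.33, adjusted p = 7.57e-10) were lower under vha-16 RNAi. Of the 20 heat-shock genes tested, 3 were higher and 3 were lower, shares above the 9.79% and 7.56% of all genes. The median was 0.03 against 0.0046 over all genes, and without vha-19 RNAi replicate 2 only 1 was higher.

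Several of the largest positive differences were in genes named only by their sequence. The gene C45B2.2 was at 74.7, 81.3 and 71.3 CPM under vha-16 RNAi and at 33.1, 29.3 and 32.1 CPM under vha-19 RNAi, a log2 fold change of 1.27 (SE 0.0533, edgeR adjusted p = 1e-20). It was high in all vha-16 RNAi libraries, and in control and vha-6 RNAi it averaged 5.65 and 5.37 CPM. The gene nspe-7 had a larger log2 fold change, 2.07 (SE 0.21, adjusted p = 4.31e-05), at 16.95, 13.39 and 14.58 CPM against 5.147, 2.299 and 3.217 CPM. The nuclear receptor gene nhr-67, a tailless homologue, averaged 6.78 against 3.34 CPM (log2 fold change 1.02, adjusted p = 2.26e-09), and the insulin-like peptide gene ins-20 averaged 7.25 against 3.81 CPM (0.93, adjusted p = 7.51e-08). Of the 213 nuclear hormone receptor genes tested, 19 were higher (8.92%, near the 9.79% of all genes) and 3 lower (1.41%, against 7.56%), the median was 0.05, and the number lower was 1 to 5 with 1 library left out (1 without vha-16 RNAi replicate 1 and 5 without vha-19 RNAi replicate 1).

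Among genes lower under vha-16 RNAi, the largest differences included enzymes of fatty acid and aldehyde metabolism. The uncharacterised gene H02F09.3 was at 88.3, 90.3 and 96.8 CPM under vha-16 RNAi and at 160.3, 161.2 and 173.2 CPM under vha-19 RNAi, against control and vha-6 RNAi means of 2.05 and 8.11 CPM. Its log2 fold change was -0.84 (SE 0.0384, edgeR adjusted p = 4.31e-21), with no overlap. The gene T22F3.11 averaged 149 against 278 CPM (-0.90, adjusted p = 5.34e-05) and its neighbour in name T22F3.10 averaged 2.95 against 5.29 CPM (-0.84, adjusted p = 2.13e-06). The paraoxonase-like genes poml-3 and poml-4 had log2 fold changes of -0.98 (adjusted p = 1.62e-15) and -0.89 (adjusted p = 6.21e-07). The aldehyde dehydrogenase gene alh-5 averaged 5.98 against 11.9 CPM (-0.996, adjusted p = 1.95e-10).

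**Figure D3:**
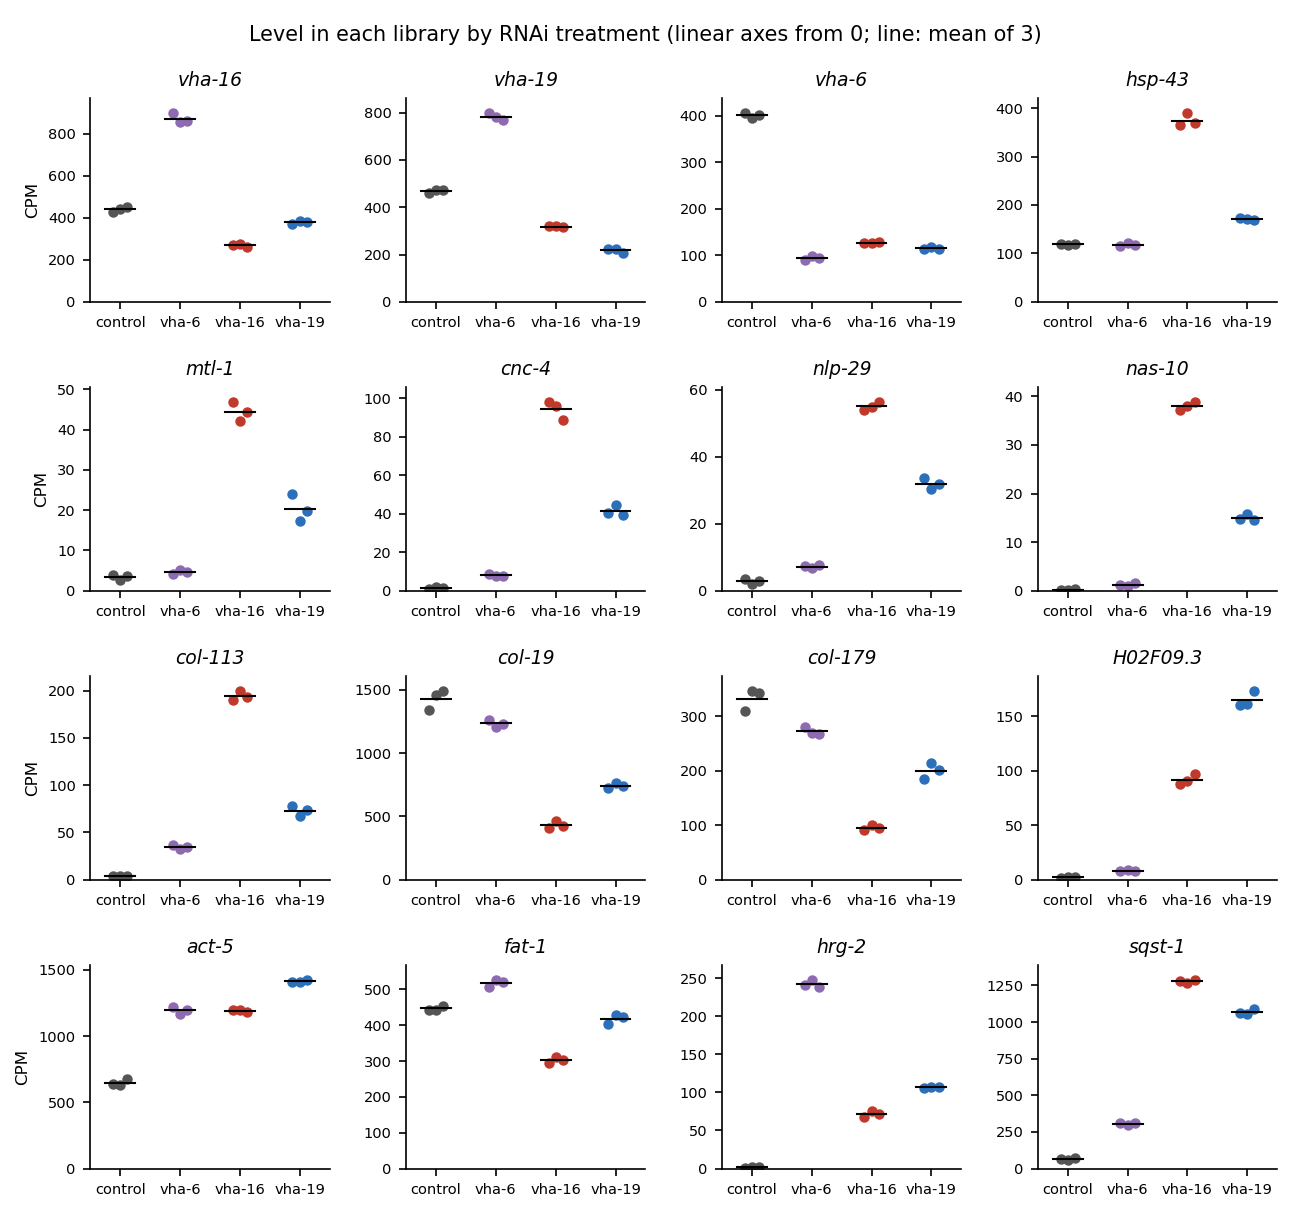
Level in CPM (y axes, linear from 0) of 16 genes in each library of the 4 RNAi treatments (x axes), with points for libraries and a line for the mean of 3. The vha-16 RNAi and vha-19 RNAi libraries separate in every panel, with hsp-43 at 364 to 389 against 169 to 173 CPM and col-19 at 409 to 467 against 725 to 761 CPM.

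Cuticle collagens were lower under vha-16 RNAi across much of the family. Of 144 genes of the col family tested, 67 were lower and 12 were higher, which is 46.5% and 8.33% of the family, against 7.56% and 9.79% of all genes. The family's median log2 fold change was -0.20 against 0.0046 over all genes, and it was -0.22 under both other scalings. Summed over the family, the level ran from 16950 to 18270 CPM under vha-16 RNAi and from 21760 to 22050 CPM under vha-19 RNAi. The control mean was 33230 CPM. Many col genes are near-identical copies, and how reads shared between copies were counted is not given in the sources used here, so single members are uncertain.

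The adult cuticle collagen gene col-19 was among the most abundant of these. It was at 408.9, 466.6 and 422.9 CPM under vha-16 RNAi and at 725.0, 760.8 and 740.5 CPM under vha-19 RNAi, a log2 fold change of -0.78 (SE 0.0405, edgeR adjusted p = 1.84e-15), and at 1427 CPM in control. The gene col-93 averaged 288 against 514 CPM (-0.84, adjusted p = 1.08e-09) and col-179 averaged 95.01 against 200 CPM (-1.07, adjusted p = 7.98e-13). No library of either gene overlapped the other group. Besides these, col-80, col-124 and col-20, named after their values were seen, were lower by more than 1.5-fold, with means of 464.5, 552.5 and 476.3 CPM under vha-16 RNAi against 752.1, 877.5 and 755.0 CPM. Of the 67 lower genes, 52 had their highest vha-16 RNAi value in replicate 2, so that library lay nearest the other group. The count of lower col genes was 61 to 75 with 1 library left out.

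A few collagen genes went the other way. The gene col-113 was at 189.8, 199.4 and 193.2 CPM under vha-16 RNAi and at 78.1, 66.8 and 73.2 CPM under vha-19 RNAi, a log2 fold change of 1.42 (SE 0.041, edgeR adjusted p = 1.83e-27). All its vha-16 RNAi libraries were more than 2-fold above the other group, and it averaged 3.94 CPM in the control libraries and 34.6 CPM with vha-6 RNAi. The gene col-109 averaged 171 against 118 CPM (0.54, adjusted p = 1.27e-08), and col-48, named after its values were seen, was at 123.6, 125.7 and 116.2 CPM against 89.01, 80.23 and 85.77 CPM (0.52, adjusted p = 1.18e-14). Both stood above control, where they averaged 10.5 and 7.44 CPM.

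**Figure D4:**
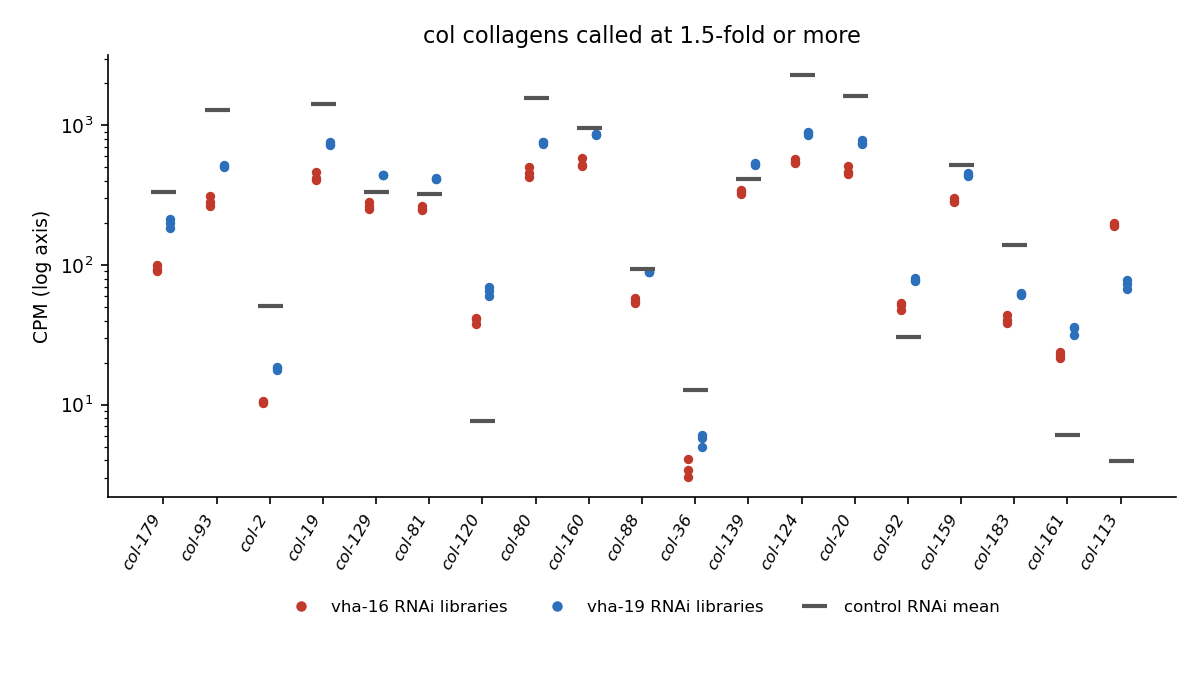
Level in CPM (y axis, log) of the 19 col collagen genes (x axis) called with a difference of 1.5-fold or more, with points for the libraries of both knockdowns and a dash for the control mean. Of these genes 18 are lower under vha-16 RNAi and 1, col-113, is higher.

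Among body-shape collagens, whose mutants are dumpy, roller or blistered, every call was lower. Of 20 tested, 9 were lower under vha-16 RNAi, a larger share than the 7.56% of all genes, and none was higher (against 9.79%). All 20 had a negative estimate, with a median of -0.16. A test against a minimum of 1.2-fold (edgeR's glmTreat) called 1 lower, and no call reached 1.5-fold. The count of lower genes was 17 without vha-19 RNAi replicate 2 and 8 to 12 without any other single library. The gene bli-6 was at 214.9, 229.2 and 218.2 CPM under vha-16 RNAi and at 317.3, 272.8 and 300.6 CPM under vha-19 RNAi (log2 fold change -0.43, SE 0.0384, edgeR adjusted p = 3.04e-11). The gene bli-1, needed for the struts of the adult cuticle, averaged 98.8 against 124 CPM (-0.33, adjusted p = 1.84e-05). In control they averaged 35.7 and 11.2 CPM, so unlike col-19 these genes were above control in both knockdowns.

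Genes of moulting split by family member. Of 90 tested, 17 were higher (18.9%, against 9.79% of all genes) and 20 were lower (22.2%, against 7.56%) under vha-16 RNAi. The median of 0.02 became -0.001 and -0.007 under the other scalings. The number of lower genes was 13 without vha-19 RNAi replicate 1. The ground-like gene grl-4, of the Hedgehog-related families, was at 230.4, 226.1 and 220.5 CPM under vha-16 RNAi and at 135.8, 120.8 and 126.0 CPM under vha-19 RNAi (log2 fold change 0.82, SE 0.0398, edgeR adjusted p = 1.06e-18). Patched-related genes went both ways, with ptr-22 at 23.7 against 13.4 CPM (0.82, adjusted p = 1.86e-11) and ptr-3 at 15.2 against 24.8 CPM (-0.71, adjusted p = 4.73e-10). The warthog gene wrt-10 was lower, at 27.6 against 36.9 CPM (-0.42, adjusted p = 0.000252).

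Astacin metalloproteases, secreted zinc proteases of which several help shed the old cuticle, were mostly higher where they were called. Of 34 tested, 9 were higher (26.5%, against 9.79% of all genes) and 1 was lower (2.94%, against 7.56%), with a median of 0.065. Without vha-19 RNAi replicate 2 the count of higher genes was 5. The count of lower genes was 2 without vha-19 RNAi replicate 2 and 3 without replicate 3. The gene nas-10 was at 37.2, 38.0 and 38.8 CPM under vha-16 RNAi and at 14.7, 15.7 and 14.5 CPM under vha-19 RNAi, against 0.237 CPM in control. Its log2 fold change was 1.34 (SE 0.0623, edgeR adjusted p = 8.72e-21). The gene nas-38 averaged 49.7 against 32.4 CPM (0.62, adjusted p = 4.44e-13). The exception was nas-37, known for its role in ecdysis, which was lower at 66.8 against 78.3 CPM (-0.23, adjusted p = 0.000136).

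Most antimicrobial peptide genes in a pair of clusters on chromosome V were higher under vha-16 RNAi. The cnc genes encode caenacins, and the nlp-29 group encodes related glycine-rich peptides made in the epidermis on wounding or fungal infection. Of the 5 cnc genes tested between 1442342 and 1450183, all 5 were higher, against 9.79% of all genes. Of the 6 nlp genes between 3978825 and 3989770, 4 were higher, 1 was lower (against 7.56% of all genes) and 1 was not called. The cluster members other than cnc-4, cnc-11, nlp-29, nlp-34 and nlp-28 were chosen after their values were seen.

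The most abundant cnc gene of the cluster, cnc-4, was at 97.8, 96.1 and 88.7 CPM under vha-16 RNAi and at 40.6, 44.4 and 39.5 CPM under vha-19 RNAi. Its log2 fold change was 1.18 (SE 0.0505, edgeR adjusted p = 7.8e-20), and it averaged 1.54 CPM in control libraries and 7.91 CPM with vha-6 RNAi. The gene cnc-2 had a log2 fold change of 1.77 at 3.08 against 0.899 CPM (adjusted p = 1.36e-10), and cnc-11 one of 0.76 (adjusted p = 2.17e-07). The call for cnc-3, 0.38 (adjusted p = 0.03), was lost without vha-16 RNAi replicate 2 (adjusted p = 0.411) and without any 1 vha-19 RNAi library.

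In the other cluster, nlp-29 was at 53.96, 54.82 and 56.24 CPM under vha-16 RNAi and at 33.6, 30.5 and 31.8 CPM under vha-19 RNAi, a log2 fold change of 0.78 (SE 0.0524, edgeR adjusted p = 7.62e-16). The gene nlp-34 was at 85.6, 94.9 and 81.0 CPM against 54.6, 47.1 and 46.7 CPM (0.82, SE 0.0721, adjusted p = 7.45e-07). No vha-19 RNAi library of either gene reached the lowest vha-16 RNAi library, and the control means were 2.85 and 2.05 CPM. The genes nlp-27 (0.62, adjusted p = 9.2e-17) and nlp-31 (0.51, adjusted p = 5.92e-09) were higher as well, nlp-30 was not called (0.18, adjusted p = 0.173), and nlp-28 was lower (-0.30, adjusted p = 0.000339).

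The wider peptide families were mixed. Of 35 cnc, abf and fip genes tested, 14 were higher (40.0%, against 9.79% of all genes) and 4 were lower (11.4%, against 7.56%) under vha-16 RNAi. Yet the median was -0.13, opposite in sign to most calls. Without vha-16 RNAi replicate 1 or vha-19 RNAi replicate 2, 2 were lower. Of 71 nlp genes, most of them neuropeptide genes, 18 were higher (25.4%) and 5 were lower (7.04%, near the 7.56% of all genes), with a median of 0.09. The number lower was 2 or 3 without vha-16 RNAi replicate 1 or 3 or vha-19 RNAi replicate 2. Of 31 FMRFamide-like neuropeptide genes, 13 were higher (41.9%, against 9.79% of all genes) and 1 was lower (3.23%, against 7.56%), with a median of 0.14. The count of higher genes depended on single libraries, and was 3 without vha-16 RNAi replicate 2 or vha-19 RNAi replicate 3, 7 without vha-19 RNAi replicate 2 and 8 without vha-16 RNAi replicate 1. The gene flp-33 was called throughout, at 18.2 against 11.9 CPM (log2 fold change 0.62, edgeR adjusted p = 1.85e-08).

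C-type lectins, secreted sugar-binding proteins often induced by bacteria, also went both ways. Of 171 tested, 28 were higher and 17 were lower under vha-16 RNAi, shares above the 9.79% and 7.56% of all genes. The median of 0.02 became -0.002 with library totals. The number of lower genes was 10 without vha-16 RNAi replicate 3 and 11 without vha-19 RNAi replicate 2. The gene clec-42 was at 50.5, 46.0 and 45.1 CPM under vha-16 RNAi and at 21.8, 20.6 and 20.3 CPM under vha-19 RNAi (log2 fold change 1.18, SE 0.0577, edgeR adjusted p = 3.88e-20). The gene clec-223 was lower, at 19.7 against 31.5 CPM (-0.68, adjusted p = 3.69e-11). Genes of the intracellular pathogen response had no common direction, with a median of -0.001. Of 67 tested, 5 were higher and 5 were lower (7.46% each, against 9.79% and 7.56% of all genes). The number higher was 3 without vha-16 RNAi replicate 2 or vha-19 RNAi replicate 1 or 3.

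**Figure D5:**
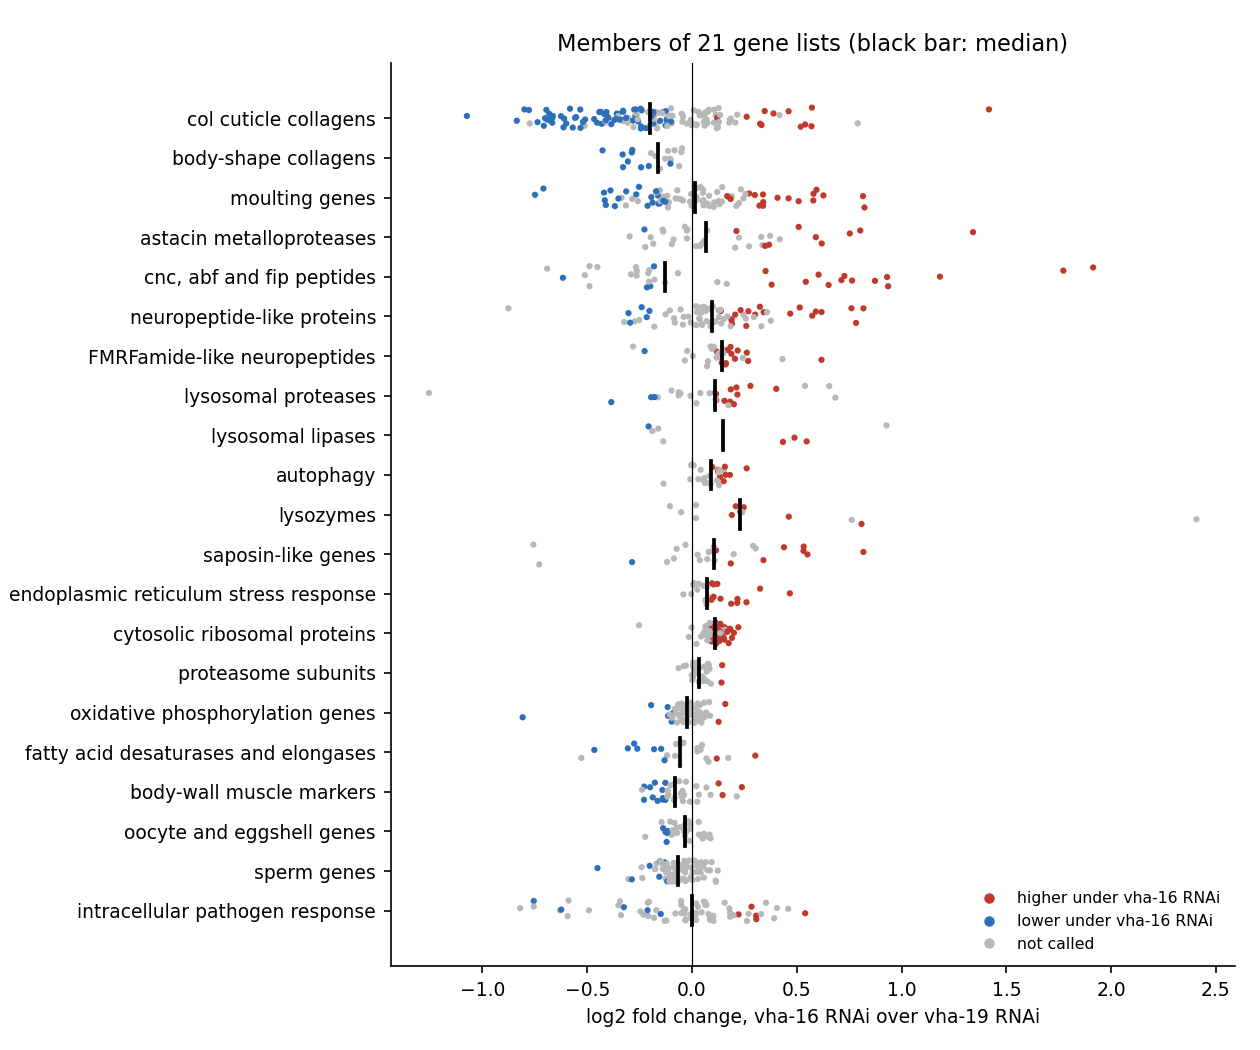
Log2 fold change, vha-16 RNAi over vha-19 RNAi (x axis), of each tested member of 21 gene lists (y axis), with points coloured by call and a black bar at the median. The col collagens lie mostly below 0 (median -0.20), and ribosomal protein and proteasome genes lie close together near 0.

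Calls among lysosomal protease genes were mostly higher under vha-16 RNAi, and the differences were small. Of 29 tested, 11 were higher (37.9%, against 9.79% of all genes) and 3 were lower (10.3%, against 7.56%), the median was 0.11, and the count of higher genes was 7 without vha-16 RNAi replicate 2, and that of lower genes 5 without vha-19 RNAi replicate 1. Their summed level ran from 8598 to 8863 CPM under vha-16 RNAi and from 7946 to 8171 CPM under vha-19 RNAi, against a mean of 14970 CPM in control. The cathepsin B gene cpr-1 was at 56.5, 56.1 and 52.8 CPM under vha-16 RNAi and at 43.4, 41.0 and 40.8 CPM under vha-19 RNAi (log2 fold change 0.40, SE 0.042, edgeR adjusted p = 3.69e-10). In control it averaged 791 CPM, so both knockdowns lay far below control. The cathepsin L gene cpl-1 averaged 700 against 577 CPM (0.28, adjusted p = 1.04e-08), and the aspartyl protease gene asp-8 was lower, at 12.68 against 16.6 CPM (-0.39, adjusted p = 2.53e-05).

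Calls among lysosomal lipase and saposin-like genes went both ways, and those among lysozyme genes were all higher. Of 8 lysosomal lipase genes tested, 3 were higher (37.5%, against 9.79% of all genes) and 1 was lower (12.5%, against 7.56%). The number higher was 1 without vha-19 RNAi replicate 2. The lipase gene lipl-5 was at 70.1, 74.1 and 70.7 CPM under vha-16 RNAi and at 44.8, 53.6 and 48.8 CPM under vha-19 RNAi (log2 fold change 0.55, SE 0.0454, edgeR adjusted p = 9.03e-13), against 540 CPM in control. The lipase gene lipl-7 was lower, at 28.7 against 33.2 CPM (-0.21, adjusted p = 0.00273). Of 13 lysozyme genes tested, 6 were higher (46.2%, against 9.79% of all genes) and none was lower (against 7.56%), with a median of 0.23. The gene lys-7, a lysozyme gene of the immune response, averaged 127 against 92.5 CPM (0.46, adjusted p = 2.71e-13). Of 25 saposin-like genes, 8 were higher and 1 was lower. The saposin-like gene spp-20 averaged 130 against 90.2 CPM (0.53, adjusted p = 9.27e-14), and 0.277 CPM in control. The gene spp-15 was lower, at 34.9 against 42.5 CPM (-0.29, adjusted p = 0.00256).

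Some autophagy genes were higher under vha-16 RNAi by a small amount. Of 28 tested, 9 were higher (32.1%, against 9.79% of all genes) and none was lower (against 7.56%), 19 were not called, the median was 0.09, and 5 were higher without vha-16 RNAi replicate 1. The receptor gene sqst-1, homologue of mammalian p62, was at 1282, 1269 and 1286 CPM under vha-16 RNAi and at 1064, 1054 and 1086 CPM under vha-19 RNAi (log2 fold change 0.26, SE 0.0322, edgeR adjusted p = 2.27e-08). The groups did not overlap, although both were far above the control mean of 63.6 CPM and the vha-6 RNAi mean of 306 CPM. The LC3-like gene lgg-2 averaged 334 against 295 CPM (0.18, adjusted p = 1.55e-05). The regulator gene hlh-30, homologue of TFEB and named after its values were seen, was not called (0.08, adjusted p = 0.164).

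Endoplasmic reticulum stress genes were called in 1 direction. Of 26 tested, 12 were higher (46.2%, against 9.79% of all genes) and none was lower (against 7.56%), the median was 0.07, and 7 were higher without vha-16 RNAi replicate 1 or vha-19 RNAi replicate 2. The disulfide isomerase gene pdi-2 was at 2149, 2202 and 2183 CPM under vha-16 RNAi and at 1857, 1749 and 1849 CPM under vha-19 RNAi (log2 fold change 0.26, SE 0.0311, edgeR adjusted p = 1.08e-08). The chaperone gene dnj-27 averaged 76.7 against 55.5 CPM (0.47, adjusted p = 4.06e-10).

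Cytosolic ribosomal protein genes were called often and differed by little. Of 81 tested, 56 were higher and none was lower under vha-16 RNAi, with a median of 0.11. That is 69.1% higher, against 9.79% of all genes and 106 of the 255 genes at 500 CPM or more. The count was 42 with DESeq2's size factors and 41 with library totals. It was 17 without vha-19 RNAi replicate 3, 20 without vha-16 RNAi replicate 1 or 2, and 22 without vha-19 RNAi replicate 2. The 95% interval lay within 1.2-fold for 77 of the 81. The gene rpl-20 was at 1210, 1201 and 1115 CPM under vha-16 RNAi and at 1076, 986.4 and 1008 CPM under vha-19 RNAi (log2 fold change 0.20, SE 0.035, edgeR adjusted p = 2.89e-05). A test against a minimum of 1.2-fold (edgeR's glmTreat) called none of the ribosomal protein and autophagy genes and 1 endoplasmic reticulum stress gene, against 33 lower col collagens.

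Proteasome and respiratory chain genes stood close in the pair. All 33 proteasome genes tested had 95% intervals within 1.2-fold, and 2 were called higher (6.06%, against 9.79% of all genes). None was higher without vha-16 RNAi replicate 1, and 1 was without vha-19 RNAi replicate 2 or 3. Of 69 nuclear-encoded oxidative phosphorylation genes, 65 had intervals within 1.2-fold, 2 were called higher (2.9%, against 9.79% of all genes) and 6 lower (8.7%, against 7.56%). The number higher was 1 without any 1 library. Summed proteasome levels ran from 5751 to 5815 CPM and from 5568 to 5714 CPM, against a mean of 10990 CPM in control.

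Lipid enzymes were lower under vha-16 RNAi for several desaturases. Of 22 genes tested in the fatty acid desaturase and elongase list, 7 were lower (31.8%, against 7.56% of all genes) and 2 were higher (9.09%, against 9.79%). The median was -0.06, and 1 was higher without vha-16 RNAi replicate 1 or 3 or vha-19 RNAi replicate 1 or 3. The higher ones were elo-2 and the transcription factor gene sbp-1, which is not an enzyme gene. The sbp-1 call was lost in edgeR with DESeq2's size factors (adjusted p = 0.0711) and library totals (adjusted p = 0.0821). The omega-3 desaturase gene fat-1 was at 293.8, 312.3 and 301.7 CPM under vha-16 RNAi and at 402.1, 428.5 and 423.4 CPM under vha-19 RNAi (log2 fold change -0.47, SE 0.0326, edgeR adjusted p = 2.91e-15). The vha-19 RNAi libraries were close to the control mean of 447 CPM and the vha-16 RNAi libraries were below it. The delta-5 desaturase gene fat-4 averaged 229 against 277 CPM (-0.28, adjusted p = 7.99e-09). The elongase gene elo-2 was higher, at 93.7 against 76.0 CPM (0.30, adjusted p = 3.23e-07).

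Of 73 genes of fatty acid activation and oxidation, 14 were lower and 9 were higher, shares above the 7.56% and 9.79% of all genes. The median was -0.02. With DESeq2's size factors 18 were lower and 6 were higher, and with library totals 19 were lower and 6 were higher. The fatty acid binding protein gene lbp-1 was at 102.6, 107.9 and 99.6 CPM under vha-16 RNAi and at 170.1, 156.3 and 157.7 CPM under vha-19 RNAi (log2 fold change -0.64, SE 0.0419, edgeR adjusted p = 1.26e-14). The carnitine palmitoyltransferase genes cpt-4 and cpt-5 had log2 fold changes of -0.79 (adjusted p = 1.95e-09) and -0.87 (adjusted p = 1.38e-09). The phosphoethanolamine methyltransferase genes pmt-1 and pmt-2, which make phosphocholine for membrane lipid, averaged 307 against 410 CPM (-0.42, adjusted p = 4.96e-13) and 135 against 184 CPM (-0.45, adjusted p = 3.36e-06). The gene pck-1, the entry enzyme of gluconeogenesis, averaged 109 against 159 CPM (-0.54, adjusted p = 5.35e-16).

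Metal, heme and hypoxia genes differed member by member. The metallothionein gene mtl-1 was at 46.8, 42.1 and 44.5 CPM under vha-16 RNAi and at 23.9, 17.3 and 19.9 CPM under vha-19 RNAi (log2 fold change 1.13, SE 0.0813, edgeR adjusted p = 1.18e-09). It was higher in all 3 vha-16 RNAi libraries and averaged 3.504 CPM in control. The cadmium-responsive gene cdr-4 averaged 633 against 468 CPM (0.44, adjusted p = 1.66e-13). The heme-responsive gene hrg-2 was lower, at 71.8 against 107 CPM (-0.57, adjusted p = 6.52e-16), and had means of 1.36 CPM in control libraries and 242 CPM with vha-6 RNAi. The gene cysl-2, a cysteine synthase-like gene regulated by the hypoxia factor HIF-1, was at 33.7, 35.9 and 34.6 CPM under vha-16 RNAi and at 55.9, 63.9 and 61.9 CPM under vha-19 RNAi (-0.80, SE 0.047, adjusted p = 1.46e-17).

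Several other genes with a low mean in control were lower under vha-16 RNAi by a small amount. The vesicle GTPase gene rab-11.2 averaged 0.475 CPM in control, 257 CPM under vha-16 RNAi and 286 CPM under vha-19 RNAi (log2 fold change -0.15, edgeR adjusted p = 0.00333). The tetraspanin gene tsp-1 averaged 0.908 CPM in control, and 219 against 254 CPM in the pair (-0.21, adjusted p = 3.52e-05). The transcription factor gene pqm-1 averaged 216 against 256 CPM (-0.25, adjusted p = 4.18e-08), with 22.1 CPM in control.

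Marker lists of tissues were read for leanings between the groups. Of 23 intestinal markers, 7 were higher (30.4%, against 9.79% of all genes) and 6 were lower (26.1%, against 7.56%) under vha-16 RNAi. The number higher was 3 without vha-19 RNAi replicate 3. Estimates in the list ran from -0.379 to 0.858, with a median of -0.04. The higher ones included the cathepsin B gene cpr-1, at 55.1 against 41.7 CPM (log2 fold change 0.40, edgeR adjusted p = 3.69e-10). The lower ones included genes of the brush border and its filament web, with actin act-5 at 1197, 1195 and 1186 CPM against 1407, 1411 and 1423 CPM (log2 fold change -0.245, SE 0.0304, edgeR adjusted p = 2.41e-08) and intermediate filament ifd-2 at 110 against 139 CPM (-0.34, adjusted p = 1.19e-10). Of 37 body-wall muscle markers, 11 were lower (29.7%, against 7.56% of all genes) and 3 were higher (8.11%, against 9.79%), with a median of -0.08. Summed muscle levels ran from 11420 to 11580 CPM under vha-16 RNAi and from 11740 to 12010 CPM under vha-19 RNAi, without overlap. Of 17 hypodermal markers, 7 were lower (41.2%, against 7.56% of all genes) and 2 were higher (11.8%, against 9.79%, and 1 gene without replicate 3 of either group). Their median was -0.03, and 8 of the 17 estimates were positive. Their sums were 1087 to 1180 against 1473 to 1488 CPM. Most of that gap is the collagen gene col-19, which alone averaged 432.8 against 742.1 CPM. Of 40 neuronal markers, 3 were higher and 2 lower (7.5% and 5.0%, against 9.79% and 7.56% of all genes). The part of tissue proportions in the differences above was not tested.

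Germline genes were close in the pair, with a small lean towards lower levels under vha-16 RNAi. Of 36 oocyte and eggshell genes, 5 were lower (13.9%, against 7.56% of all genes) and none was higher (against 9.79%) under vha-16 RNAi. The 95% interval lay within 1.2-fold for 33 of them. Their sums of 3479 to 3587 against 3575 to 3740 CPM overlapped, far below the control mean of 28040 CPM. The count of lower genes was 8 and 10 under the other scalings, 10 without vha-16 RNAi replicate 1 and 12 without vha-19 RNAi replicate 1. Of 85 sperm genes tested, 8 were lower (9.41%, against 7.56% of all genes) and none was higher (against 9.79%). Their sums of 3002 to 3096 CPM under vha-16 RNAi and 3102 to 3275 CPM under vha-19 RNAi did not overlap. Estimates were positive for 19 of the 85 sperm genes and for 7 of the 36 oocyte and eggshell genes. The number lower was 12 with DESeq2's size factors, 13 with library totals and 15 without vha-19 RNAi replicate 3. Yolk protein genes form a separate list. Of its 6 genes, 2 were higher (33.3%, against 9.79% of all genes) and none was lower (against 7.56%). Estimates ran from -0.245 to 0.352, with a median of 0.065. The gene vit-2 was at 3270, 3075 and 3368 CPM under vha-16 RNAi against 2301, 2681 and 2629 CPM (log2 fold change 0.35, SE 0.0525, edgeR adjusted p = 0.000156), with a control mean of 32930 CPM. The call for vit-6 (0.185, adjusted p = 0.0423) was lost with DESeq2's size factors (adjusted p = 0.108) and without vha-16 RNAi replicate 1 (adjusted p = 0.222).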

How the data were processed

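Whole-worm poly(A) RNA was sequenced on the BGISeq500 platform, per the labels' protocols. The authors deposited raw whole-number read counts per gene, with no normalization. STAR 2.73a, edgeR 3.24.3 and WBcel235/ce11 are named in the submitters' processing notes; for the counting program, strand setting and gene filter the sources used here say nothing. There are 18467 genes in the table, besides 3 entries of unassigned reads, which stayed out of library sizes and tests. Unassigned reads that aligned to several places made up 7.62% to 8.10% of all counts in the 6 libraries, reads in no feature 1.25% to 1.32%, and ambiguous reads 0.975% to 1.01%.

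Counts were fitted in R 4.3.3 with edgeR 4.0.16, with 1 mean per treatment over all 12 libraries, which share 1 estimate of the spread. Low-count genes were removed by filterByExpr, leaving 17043 and removing 1424. TMM factors averaged 1.10 and 1.12 in the pair. The quasi-likelihood F-test compared vha-16 RNAi with vha-19 RNAi, and p-values were adjusted over all genes tested by Benjamini-Hochberg. Standard errors and 95% intervals were derived from the F statistic. The procedure was tested on simulated data. Alternatives were DESeq2 1.42.0 size factors and Wald test, library totals, other low-count filters, the 6 libraries alone, a replicate block, limma-voom (limma 3.58.1), glmTreat at 1.2-fold, and leaving out each library.

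Members and the 64 gene lists were chosen with earlier results of these data known. Genes named are the targets, all V-ATPase subunits, the 15 largest differences in each direction among called genes without overlap at 5 CPM or more in the higher group, up to 3 called genes of each list in each direction by size of difference at the same level, and genes within 10 kb of the targets. Any other was named after its values were seen. Symbols are those of the table, and positions are from Ensembl release 115. No 2 libraries of a group agreed within counting noise (chi-square per degree of freedom 2.01 to 2.93). Python 3.11.15 and matplotlib 3.10.9 made the plots.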

Additional observations from a re-analysis of the deposited data

Results flagged for a closer look

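Reads in no feature and ambiguous reads, which enter no gene count, were more frequent in both knockdowns than in every control library. Reads in no annotated feature made up 1.296% of all counts under vha-16 RNAi (SD 0.0206, n = 3) and 1.268% under vha-19 RNAi (SD 0.0222), against 0.693% in control. Ambiguous reads, which fall on more than 1 gene, made up 1.00% and 0.986%, against 0.863% in control. Between the knockdowns, exact two-sided permutation tests gave p = 0.2 and p = 0.3 for these shares, and 3 libraries against 3 cannot go below 0.1.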

How the results depend on the processing

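No called gene changed direction in any alternative. Of the called genes, 233 higher and 143 lower kept their call in every alternative, and 847 higher and 808 lower kept it without each library in turn. Of 266 called genes named by rule, 204 kept their call in every alternative other than glmTreat, and glmTreat at 1.2-fold ended 175 calls, since it asks for a difference beyond that size. It called 318 genes higher and 171 lower, and left vha-6 at 0.139 (adjusted p = 1). The DESeq2 Wald test called 1063 higher and 1116 lower, so 48.8% of its calls were higher. Calls of 2-fold or more were 37 higher and 9 lower by the Wald test, and 20 higher and 7 lower with a filter at a mean of 5 CPM, which also left 195 calls of 1.5-fold or more in place of 397, since it tests fewer genes. By glmTreat 11 genes were lower by 2-fold or more. Leaving out 1 library gave 1120 to 1338 genes higher, 1160 to 1452 lower, 62 to 72 higher and 18 to 32 lower by 2-fold or more (31, 32 and 30 without vha-16 RNAi replicate 1, 2 and 3), and 0.109 to 0.142 for vha-6. The cause was not tested. The number of genes with intervals within 1.5-fold was run under the alternatives that give a standard error, a choice made after seeing the data, and stayed within 1.5 times 13237 in each.

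Uncalled subunits near 0 changed sign. With DESeq2's size factors and Wald test vha-8 and unc-32 were at -0.01, vha-14 at -0.006, and vha-10 and vha-13 at -0.002. With library totals vha-8 and unc-32 were at -0.015, vha-14 at -0.011, and vha-10 and vha-13 at -0.008, and with only the 6 libraries vha-8 and unc-32 were at -0.001. Without 1 library the ranges were -0.027 to 0.021 for vha-8, -0.028 to 0.019 for vha-10, -0.01 to -0.002 for vha-14, -0.008 to 0.006 for vha-13, -0.027 to 0.01 for unc-32, -0.009 to 0.07 for vha-3 and -0.002 to 0.037 for otub-4.

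The main fit did not pair libraries by replicate number. Deviations from the group mean correlated at 0.0900, 0.110 and 0.172 between same-numbered libraries of the pair. Between libraries of different number the correlations ran from -0.140 to 0.0135. Each library thus correlated best with the one of its own number, a hint of shared replicate structure from the data and not the design. With a replicate block 1686 genes were higher and 1310 lower. Depth limits genes under 1 CPM, whose median SE was 0.353, against 0.0322 at 500 CPM or more.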

Other observations

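Detoxification genes differed by member between the knockdowns. Of 71 cytochrome P450 genes tested, 11 were higher (15.5%, against 9.79% of all genes) and 8 were lower (11.3%, against 7.56%) under vha-16 RNAi. The gene cyp-14A5 was at 64.35, 64.12 and 65.72 CPM under vha-16 RNAi and at 39.59, 34.05 and 36.93 CPM under vha-19 RNAi (log2 fold change 0.81, SE 0.0476, edgeR adjusted p = 1.45e-17). Of 63 UDP-glucuronosyltransferase genes, 15 were higher (23.8%, against 9.79%) and 10 were lower (15.9%, against 7.56%). The gene ugt-12 averaged 32.6 against 55.7 CPM (-0.77, adjusted p = 2.16e-17). Among F-box genes, substrate adaptors of ubiquitin ligases, 7 were higher and 6 were lower of 294 tested. These shares of 2.38% and 2.04% are below the 9.79% and 7.56% of all genes. The count of higher genes was 2 to 4 without vha-16 RNAi replicate 2 or 3 or vha-19 RNAi replicate 2 or 3. That of lower genes was 10 without vha-16 RNAi replicate 2 and 2 without vha-19 RNAi replicate 2. The gene fbxa-24 averaged 52.6 against 79.2 CPM (-0.59, adjusted p = 8.24e-12), with 1.297 CPM in control. The Skp1-related gene skr-5 averaged 59.7 against 48.2 CPM (0.31, adjusted p = 2.64e-06), with 1.01 CPM in control.

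Reads aligned to several places made up 7.64% ± 0.0268 (SD, n = 3) of all counts in the vha-16 RNAi libraries and 8.08% ± 0.0182 in the vha-19 RNAi libraries. The groups did not overlap, and the exact permutation p of 0.1 is the smallest this design can give.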
